A study of Mus musculus with 10 samples.

Results

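The integrated stress response was followed through 10 of its genes in single-cell RNA sequencing of mouse embryonic back skin. The genes were taken by symbol: Atf4, Atf5, Ddit3, Trib3, Chac1, Asns, Psat1, Phgdh, Mthfd2 and Shmt2, which are 10 of the 32285 genes listed (all 10 also stand among the genes listed at E16.5). Their transcripts were counted as unique molecular identifiers (UMIs, 1 per captured mRNA molecule) in 3 classes of cells. Basal epidermal cells had at least 10 UMIs of Krt5 and Krt14 together and under 10 of Krt1 and Krt10. Suprabasal cells had at least 20 UMIs of Krt1 and Krt10. Fibroblasts had at least 30 UMIs of Col1a1 and Col3a1 and under 10 of Krt5 and Krt14. Levels are given as CPM, the UMIs of a gene per 1e+06 UMIs of all genes, summed over all cells of a class in a library.

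The study asked what loss of MOF and of QPC does to developing skin. MOF, encoded by Kat8, is the acetyltransferase of a lysine on histone H4, and QPC, encoded by Uqcrq, is a subunit of respiratory complex III. Both genes were deleted as floxed alleles with K14Cre, a Cre driven in the epithelium and not in fibroblasts, so that fibroblasts of a cKO embryo come from skin whose epidermis was targeted. There were 2 control and 2 MOFfl/fl/K14Cre (MOF cKO) libraries at E15.5, the same numbers at E16.5, and 1 control and 1 QPCfl/fl/K14Cre (QPC cKO) library at E17.5. Per the study's methods the controls were littermates, and all mice had a mixed C57Bl/6J and CD-1 background. Its results describe control animals as wild-type or heterozygous, without giving this per library. Per the labels total back skin was dissociated with collagenase and then trypsin. The study regards replicate 6 of the E15.5 MOF cKO libraries as mosaic for the loss of MOF and replicate 5 as uniform. By the labels each stage had its own version of the 10x 3' chemistry, so stage and chemistry cannot be told apart. The study describes the libraries of every stage as pairs of control and cKO samples, without saying which library pairs with which. The labels do not say how many embryos went into a library, while at E15.5 the study speaks of 2 pairs of control and MOF cKO embryos. The p-values below measure the spread between libraries.

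In the integrated stress response, kinases that sense amino acid shortage, unfolded protein, heme shortage or mitochondrial damage phosphorylate the translation factor eIF2. General protein synthesis then slows while translation of a few mRNAs, Atf4 first among them, goes up. ATF4 is a transcription factor that switches on genes for amino acid synthesis and import, tRNA charging and mitochondrial one-carbon metabolism, and respiratory chain defects are a known trigger. Because ATF4 is controlled at translation, the level of its mRNA is not a readout of its protein, and its target genes are usually read instead.

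The 10 genes lie on 7 mouse chromosomes (GRCm38, GENCODE vM21 genes). Atf4 is at chr15:80255184-80257541 on the plus strand, Atf5 at chr7:44812256-44816658 on the minus strand and Ddit3 at chr10:127290774-127296288 on the plus strand. Trib3 at chr2:152337422-152344032 (minus) and Chac1 at chr2:119351229-119354381 (plus) encode effectors of the response. The amino acid enzymes are Asns at chr6:7675169-7693254, Psat1 at chr19:15904678-15947337 and Phgdh at chr3:98313170-98339990, all on the minus strand. The mitochondrial one-carbon enzymes are Mthfd2 at chr6:83305691-83325908 and Shmt2 at chr10:127517123-127522444, also on the minus strand.

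ATF4 pairs with C/EBP proteins on composite elements of the form TGATGNAA, read on either strand as TTNCATCA. In the RefSeq promoters of the 10 genes (GRCm38.p6, 12 starts, 250 bases before to 50 bases after each), this motif was found in 3 genes, and their promoters are shown because these are also genes whose counts stood apart in QPC cKO keratinocytes. Capitals mark the match. In Trib3 (chr2:152344011-152344310, minus strand) its first base is 15 bases after the start, in Chac1 (chr2:119350992-119351291, plus strand) 193 bases before it, and in Asns (chr6:7693160-7693459, minus strand) 23 bases before it.
Trib3: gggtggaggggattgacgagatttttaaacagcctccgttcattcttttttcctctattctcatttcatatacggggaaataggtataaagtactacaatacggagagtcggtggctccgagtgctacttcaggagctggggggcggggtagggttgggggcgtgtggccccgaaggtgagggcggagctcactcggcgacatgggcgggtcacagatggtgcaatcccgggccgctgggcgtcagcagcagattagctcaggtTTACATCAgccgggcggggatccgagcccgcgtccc
Chac1: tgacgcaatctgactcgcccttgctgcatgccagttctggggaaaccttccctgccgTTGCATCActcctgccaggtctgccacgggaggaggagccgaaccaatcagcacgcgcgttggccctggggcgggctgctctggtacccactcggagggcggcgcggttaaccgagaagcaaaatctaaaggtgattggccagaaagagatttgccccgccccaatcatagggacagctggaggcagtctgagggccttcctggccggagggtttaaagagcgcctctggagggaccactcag
Asns: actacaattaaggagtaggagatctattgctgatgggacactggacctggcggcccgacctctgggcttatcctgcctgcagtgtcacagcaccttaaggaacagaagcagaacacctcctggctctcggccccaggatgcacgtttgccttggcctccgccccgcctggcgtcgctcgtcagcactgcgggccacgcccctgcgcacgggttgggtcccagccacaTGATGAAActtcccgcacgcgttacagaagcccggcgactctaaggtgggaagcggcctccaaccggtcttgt
The same letters occur in 1304 of 32851 promoters of this length, or 3.97%, and in those of 1219 of 27025 genes, or 4.51%. A match describes the sequence only, and the windows of the other 7 genes simply do not hold these letters.

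The libraries held 13609345 to 203392303 UMIs, and 716 to 10653 cells per library passed the limits of over 1000 and under 6000 genes and under 10% mitochondrial UMIs. Basal cells numbered 901 to 2584 per library at E15.5 and 239 and 464 in the E16.5 controls, but 21 and 22 in the E16.5 MOF cKO libraries. At E17.5 the control had 2807 and QPC cKO 1066. The gate fixed Krt5 and Krt14, and the other 5 basal keratinocyte markers were present in every basal pool, summing to 637 to 4405 CPM, against 27.5 to 133 CPM in fibroblasts. The 2 E16.5 MOF cKO pools held more of the 5 suprabasal markers outside the gate (3872 and 1245 CPM) than of these basal ones (637 and 1080 CPM), whereas their controls held less (523 and 1824 against 2931 and 4405 CPM), so at E16.5 basal names a gate in MOF cKO and not a checked cell type. In the E17.5 control, however, 1270 of the 2807 basal cells also had at least 30 collagen UMIs, against 98 of 1066 in QPC cKO, and the 5 fibroblast markers other than the gate's collagens summed to 11475 and 2345 CPM. A narrower gate that removed every cell with 10 or more UMIs of the other tissue's gate genes left 1049 and 916 basal cells, with 1128 and 834 CPM of the same 5 markers. Values under this gate are given for most E17.5 results, since Atf4, Atf5, Ddit3 and Mthfd2 are higher in fibroblasts. The 2 E17.5 libraries also shared 1702 cell barcodes, 20.7% of the smaller library (no other pair shared over 0.746%), of which 75 and 10 were in basal cells. Leaving these out left the same 5 basal and 4 suprabasal calls of the E17.5 comparison.

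The deleted genes were checked first. In the E17.5 library labelled QPC cKO, Uqcrq was at 45.7 CPM in basal cells against 103 in the control, at 27.8 against 144 in suprabasal cells, and at 122 against 69.4 in fibroblasts. Under the narrower gate the basal values were 38.1 and 130 CPM. Kat8 in basal cells was at 13.02 and 13.71 CPM in E15.5 controls and 13.39 and 10.32 in MOF cKO. At E16.5 it was at 16.4 and 14.9 CPM in controls and at 8.31 and 4.51 in MOF cKO, the last 2 values resting on 3 and 2 UMIs. Kat8 was also lower in fibroblasts, which K14Cre does not target, at 9.18 and 9.62 CPM in E15.5 controls against 6.83 and 5.98 in MOF cKO (log2 difference -0.58, edgeR adjusted p = 0.194). The UMIs come from 3' ends, which may lie outside the deleted part, so the Kat8 counts are a weak check of the labels.

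In control skin the serine and asparagine enzymes were higher in basal cells than in fibroblasts, and the transcription factors were higher in fibroblasts. The comparison was made within the 5 control libraries with edgeR, library as a block, and 8 of the 10 genes passed an adjusted p of 0.05, 4 in each direction. Of all genes tested, 55.5% passed, and the 8 of 10 is to be read against that share. Psat1, which makes phosphoserine, was at 164, 150, 176, 252 and 93.9 CPM in basal cells of E15.5 controls 2 and 3, E16.5 controls 1 and 2 and the E17.5 control. In fibroblasts of the same libraries it was at 27.9, 28.2, 50.6, 53.3 and 23.5 CPM. Every basal value was above every fibroblast value, and the log2 difference was 2.26 ± 0.16 (SE, edgeR adjusted p = 0.000437). Phgdh, the first enzyme of serine synthesis, ranged from 199 to 371 CPM in basal cells and from 62.2 to 133 in fibroblasts (1.55 ± 0.12, edgeR adjusted p = 0.000546). All these are values of all gated cells, and many of the E17.5 control basal cells also carried collagen UMIs. Under the narrower gate that pool was at 145 CPM for Psat1, 300 for Phgdh, 34.1 for Atf5, 24.1 for Ddit3 and 13.2 for Mthfd2. The same pool enters the comparison with suprabasal cells below.

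Asns, asparagine synthetase, varied little among the controls, with a mean of 31.1 ± 2.85 CPM (SD, n = 5) in basal cells and 21.1 ± 1.25 in fibroblasts, and the log2 difference was 0.61 ± 0.09 (edgeR adjusted p = 0.00324). Shmt2, the mitochondrial serine hydroxymethyltransferase, differed by the same 0.61 ± 0.08 (edgeR adjusted p = 0.00218). Its partner in mitochondrial one-carbon metabolism, the dehydrogenase Mthfd2, went the other way, with 17.9 to 31.3 CPM in basal cells and 35.0 to 51.7 in fibroblasts (-0.84 ± 0.11, edgeR adjusted p = 0.00198). Among the transcription factors, Atf5, a relative of Atf4 that is also controlled at translation, was lower in basal cells by the largest margin of the 10 genes (-1.20 ± 0.12, edgeR adjusted p = 0.000894). Ddit3, which encodes CHOP, a factor tied to cell death under stress, was lower by -0.78 ± 0.10 and Atf4 by -0.48 ± 0.10 on the log2 scale (edgeR adjusted p = 0.00178 and 0.00962). Trib3 and Chac1 did not pass (edgeR adjusted p = 0.129 and 0.431).

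**Figure D1:**
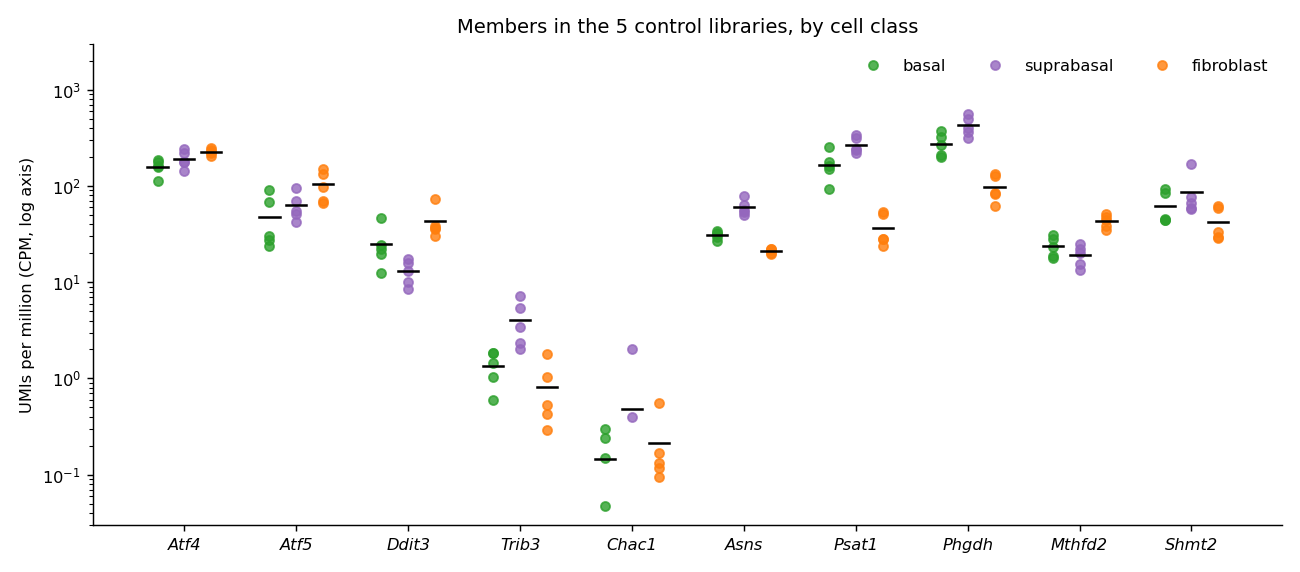
Level of each of the 10 genes in the 5 control libraries, by cell class. The y axis is CPM on a log scale, each dot is 1 library with at least 1 UMI, and the black line is the mean of the 5 libraries. Psat1 is at 93.9 to 252 CPM in basal cells and 23.5 to 53.3 CPM in fibroblasts, while Atf5 is at 23.8 to 90.4 and 67.1 to 151 CPM.

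From basal to suprabasal cells of control skin, 6 of 9 tested genes rose and 1 fell, where 29.5% of all genes tested passed (edgeR, library as a block). Asns was at 49.9, 54.3, 78.4, 56.9 and 63.2 CPM in suprabasal cells, against 32.8, 32.0, 27.1, 34.2 and 29.3 in basal cells of the same libraries. No basal value reached the suprabasal values, and Asns rose by 1.06 ± 0.16 on the log2 scale (edgeR adjusted p = 0.00317). Psat1 rose by 0.88 ± 0.15 and Phgdh by 0.79 ± 0.12 (edgeR adjusted p = 0.00446 and 0.00289). These 3 enzymes passed also when any 1 of the control libraries was left out. Trib3, a pseudokinase that ATF4 induces and that in turn holds ATF4 down, rose by 1.54 ± 0.43, Atf5 by 0.67 ± 0.19 and Atf4 by 0.41 ± 0.11, while Ddit3 fell by 0.71 on the log2 scale (SE 0.18, edgeR adjusted p = 0.0239). These 4 calls were less firm: without E15.5 control 2, or without E16.5 control 1, and also with cells over 5% mitochondrial UMIs removed, 3 members passed, and without E15.5 control 3 it was 4. Shmt2 was at the threshold (0.56 ± 0.18, edgeR adjusted p = 0.0501), and Mthfd2 was at -0.11 ± 0.22 (edgeR adjusted p = 0.752).

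The QPC cKO library at E17.5 differed from its control in 5 of the 10 genes by at least 2-fold in basal cells, and all 5 were higher: Atf5, Trib3, Chac1, Asns and Mthfd2. In suprabasal cells the same comparison gave 4 higher (Atf5, Trib3, Asns and Mthfd2), and in fibroblasts none of the 9 genes with at least 50 UMIs was 2-fold higher or lower. Of all genes with at least 50 UMIs, 1.43% were 2-fold higher in basal cells and 0.726% in suprabasal cells, and 2.19% differed 2-fold either way in fibroblasts. Under the narrower gate it was again 5 and 4 genes, against 1.18% and 0.845% of all genes. With 1 library per group there is no replicate and no test, and the 95% intervals below cover counting error only. The 10 genes were chosen with earlier results of these data known, so the contrast with all genes is not independent support.

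Atf4 itself differed little. In basal cells the control had 185 CPM and QPC cKO 149, a ratio of 0.804 (95% interval 0.776 to 0.834), and under the narrower gate at 139 and 144 CPM, a ratio of 1.03 (0.984 to 1.09). In suprabasal cells it was at 177 and 176 CPM. Its mRNA in QPC cKO keratinocytes thus lay within the range of the other 9 libraries, which had 112 to 186 CPM in basal cells. Atf5 was at 90.4 CPM in control basal cells against 205 in QPC cKO, 2.26-fold higher (2.18 to 2.35). Without the cells that also carried collagen UMIs the control fell to 34.1 CPM while QPC cKO was at 208, a ratio of 6.09 (5.65 to 6.58). The size of the Atf5 difference therefore depends on the gate, and its direction does not. In suprabasal cells Atf5 was at 70.4 and 276 CPM, 3.92-fold higher (3.43 to 4.49). Ddit3 was at 46.2 and 37.8 CPM in basal cells, a ratio of 0.817 (0.759 to 0.878), but at 24.1 and 34.9 CPM under the narrower gate, a ratio of 1.45 (1.299 to 1.62), so that its direction turned with the gate. In suprabasal cells Ddit3 was at 17.45 and 25.4 CPM.

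Of the effectors, Trib3 was at 1.83 CPM (121 UMIs) in control basal cells and 14.8 CPM (386 UMIs) in QPC cKO, 8.12-fold higher (6.61 to 10.0), and at 5.42 and 35.4 CPM in suprabasal cells, 6.54-fold higher (4.16 to 10.6). Chac1, which degrades glutathione and is a target of the ATF4 and CHOP branch, was close to absent from control basal cells, with 16 UMIs (0.242 CPM), and had 124 UMIs (4.77 CPM) in QPC cKO, a ratio of 19.7 (11.7 to 35.6). In suprabasal cells it had 2 UMIs in each library. In the control libraries both genes were low: Trib3 was at 0.596 to 1.83 CPM in the control basal pools, and no basal pool other than QPC cKO held over 0.298 CPM of Chac1. Under the narrower gate the basal ratios were 6.52 (4.92 to 8.78) for Trib3 and 31.1 (11.8 to 116) for Chac1, and the suprabasal ratio of Trib3 was 6.23 (3.68 to 11.1).

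Asns was at 29.3 CPM in control and 94.3 CPM in QPC cKO basal cells, 3.22-fold higher (3.03 to 3.42), and at 63.2 and 198 CPM in suprabasal cells, 3.14-fold higher (2.70 to 3.64). The 5 control libraries spanned 27.1 to 34.2 CPM in basal cells. The serine enzymes differed less. Psat1 was at 93.9 and 172 CPM in basal cells, 1.84-fold (1.77 to 1.91), and Phgdh at 199 and 338 CPM, 1.70-fold (1.65 to 1.74), which dropped to 1.26-fold and 1.22-fold under the narrower gate. Neither QPC cKO value was outside the basal values of the control libraries at the other stages, which reached 252 and 371 CPM. Mthfd2 was at 27.8 and 67.3 CPM, 2.42-fold higher (2.26 to 2.58), and at 13.2 and 68.1 CPM under the narrower gate, 5.15-fold higher (4.56 to 5.84). In suprabasal cells it showed the largest ratio among the genes called there, from 15.4 to 120 CPM, or 7.75-fold (5.98 to 10.1). Shmt2 was at 45.4 and 65.0 CPM in basal cells, 1.43-fold (1.35 to 1.52), and 1.21-fold (1.12 to 1.303) under the narrower gate, where Asns was 2.80-fold higher in basal cells (2.58 to 3.03). In suprabasal cells that gate gave 3.39 for Asns, 4.22 for Atf5 and 8.06 for Mthfd2.

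**Figure D2:**
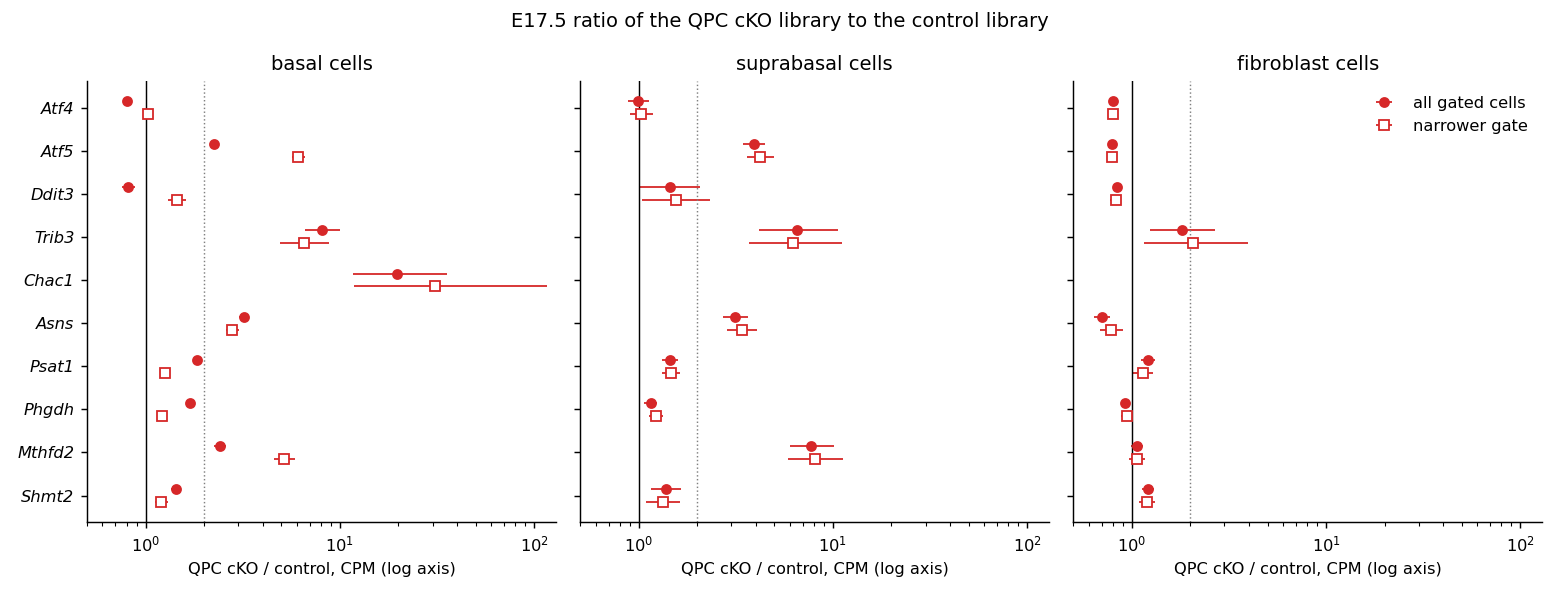
Ratio of QPC cKO to control CPM at E17.5 for each gene (log axis) in basal cells, suprabasal cells and fibroblasts, for all gated cells and for the narrower gate, with 95% counting intervals. Chac1 is left out of the suprabasal and fibroblast panels. Asns lies at 3.22 and 3.14 in the epidermal panels and at 0.700 in fibroblasts.

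With all gated cells, fibroblasts of the same 2 libraries had none of the 2-fold differences. Asns was at 21.5 CPM in control fibroblasts against 15.1 in QPC cKO, a ratio of 0.700 (0.636 to 0.770), Atf5 at 151 and 120 CPM, a ratio of 0.793 (0.766 to 0.821), and Mthfd2 at 35.0 and 37.4 CPM, a ratio of 1.07 (0.996 to 1.14). Trib3 was at 1.03 CPM (37 UMIs) and 1.86 CPM (121 UMIs), the highest ratio among the fibroblast values, 1.81 (1.24 to 2.69). Under the narrower gate Trib3 was at 0.883 CPM (13 UMIs) and 1.82 CPM (108 UMIs), a ratio of 2.06 (1.15 to 3.99). It was not called, since calls add 1 CPM to both values (log2 ratio 0.58). Atf4, Ddit3, Psat1, Phgdh and Shmt2 had ratios of 0.798 to 1.21. Whether the epidermal and fibroblast ratios differ beyond library variation was not tested, since each rests on 1 pair of libraries.

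The QPC cKO library also stood above all 9 other libraries for Atf5, Trib3, Chac1, Asns and Mthfd2 in basal cells, and for Atf5, Ddit3, Trib3, Asns and Mthfd2 in suprabasal cells. In fibroblasts it did so for Trib3 alone, at 1.86 CPM against at most 1.81. Under the narrower gate Ddit3 joined the basal genes, and suprabasal Trib3, at 36.4 CPM, was just below 36.7 CPM in E16.5 MOF cKO 2, a value from 3 UMIs. For Asns the highest of the other 9 basal values was 39.0 CPM, in MOF cKO replicate 6 at E15.5. For Mthfd2 it was 31.3 CPM, in E16.5 control 1, and for Atf5 90.4 CPM, in the E17.5 control. For Trib3 it was 11.1 CPM, in E16.5 MOF cKO 1, a value from 4 UMIs.

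**Figure D3:**
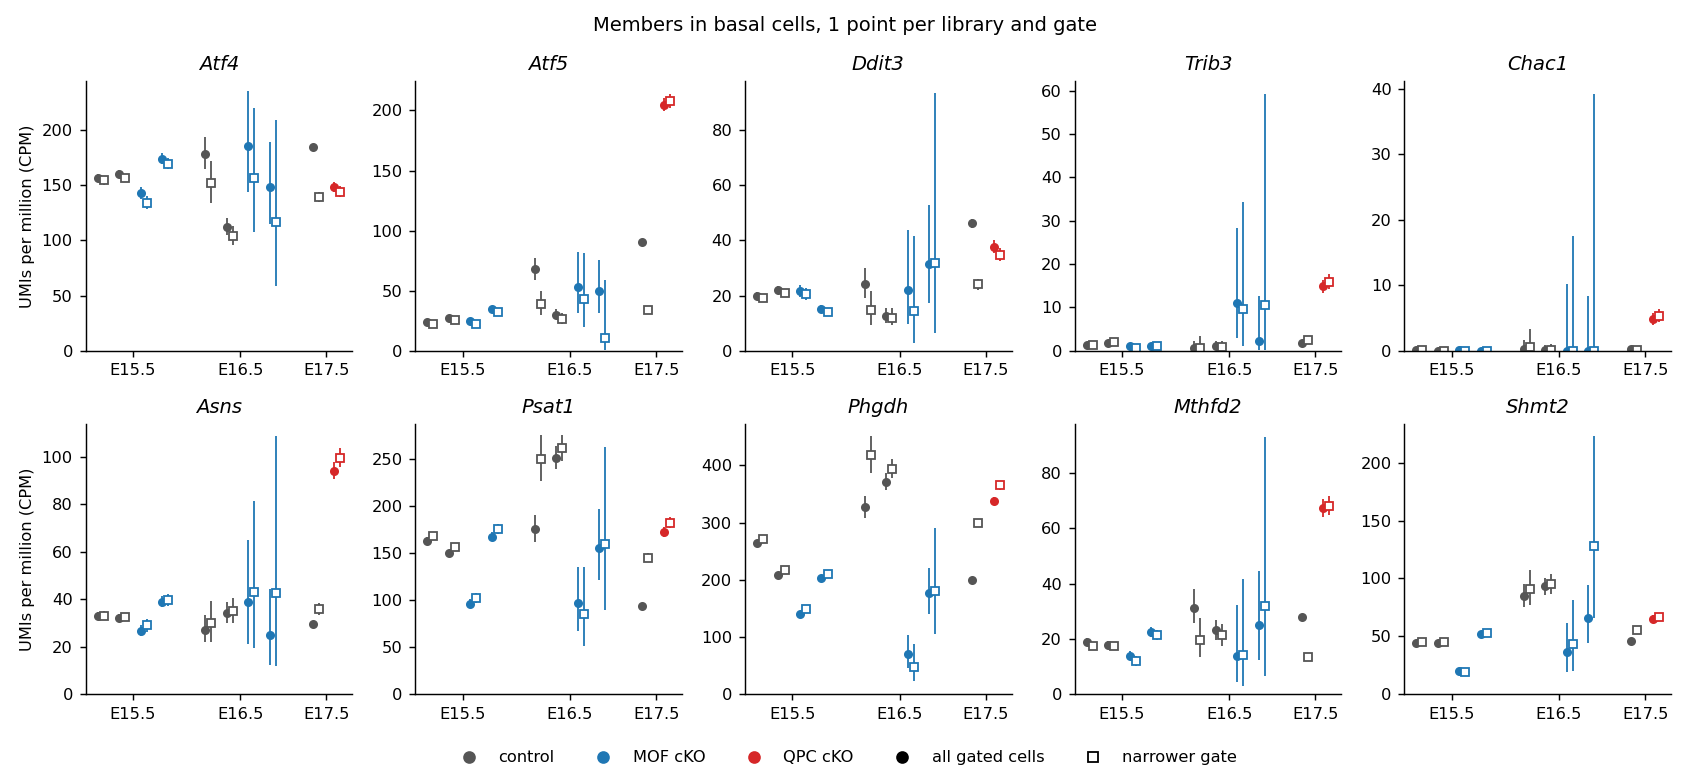
Level of each gene in basal cells of all 10 libraries, in CPM. Filled circles use all gated cells, open squares the narrower gate, and bars are 95% Poisson intervals. The QPC cKO values of Atf5 (205 CPM), Asns (94.3 CPM) and Mthfd2 (67.3 CPM) lie above those of all other libraries, whereas Atf4 (149 CPM) lies among them.

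The share of cells in which the genes were detected was compared next. Each cell was thinned to 5000 UMIs, so that depth (median 25183 UMIs per basal cell in QPC cKO and 23870 in the control) could not set the share of cells with a UMI. At least 5 of the 10 genes were then detected in 215 of 1055 QPC cKO basal cells, 20.4% (Wilson 95% interval 18.1 to 22.9), and in 108 of 2795 control basal cells, 3.86% (3.21 to 4.64). Under the narrower gate the shares were 22.1% and 3.36%. In suprabasal cells they were 45.7% (32 of 70) and 15.6% (28 of 179), and in fibroblasts 2.30% and 3.21%. Asns was detected in 31.1% of QPC cKO and 12.3% of control basal cells, and in 6.88% and 8.76% of fibroblasts (median 18789 and 20088 UMIs before thinning). Fibroblasts have Asns of their own (21.1 ± 1.25 CPM in controls), so their share is not a level of free RNA, which was not measured. Trib3 was detected in 5.78% and 0.572% of basal cells and in 0.808% and 0.458% of fibroblasts. Chac1 was detected in 1.42% of QPC cKO basal cells and in 0 of 2795 control basal cells, which at this thinned depth allows up to 0.137% (Wilson). Before thinning the control basal cells held 16 Chac1 UMIs. Atf4 was detected in 50.1% and 56.3% of basal cells, and Atf5 in 42.3% and 29.5%, while fibroblasts had 39.7% and 48.3% with Atf5. The Atf5 share in control basal cells was 13.7% under the narrower gate, against 41.2% in QPC cKO.

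Within QPC cKO basal cells of the narrower gate, cells with an Asns UMI held the other genes, Atf4 excepted, more often. After thinning to 5000 UMIs, 299 cells had an Asns UMI and 607 had none. Atf5 was detected in 62.2% (Wilson 56.6 to 67.5) of the first and 30.8% (27.3 to 34.6) of the second. Mthfd2 was in 32.4% and 13.8%, Trib3 in 10.7% and 3.46%, Shmt2 in 35.8% and 22.6%, and Psat1 in 60.9% and 46.6%. Ddit3 was in 19.7% and 11.2%, Phgdh in 81.9% and 73.8%, Chac1 in 3.68% and 0.659%, and Atf4 in 46.5% and 49.8%. How many of all genes were more frequent in cells with an Asns UMI was not counted. In control basal cells, where 155 had an Asns UMI and 887 had none, Atf5 was in 16.1% and 13.3% and Mthfd2 in 8.39% and 4.96%. Phgdh was in 77.4% and 69.6% of these control cells, Psat1 in 51.6% and 45.7%, and Ddit3 in 14.2% and 11.4%. Shmt2 and Trib3 (1 and 4 cells) went the same way, Atf4 did not (47.7% and 48.9%), and Chac1 was not detected. The direction was therefore not particular to QPC cKO, and whether the gaps differ between the libraries was not tested. The cells come from 1 library each, so the shares describe those libraries.

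**Figure D4:**
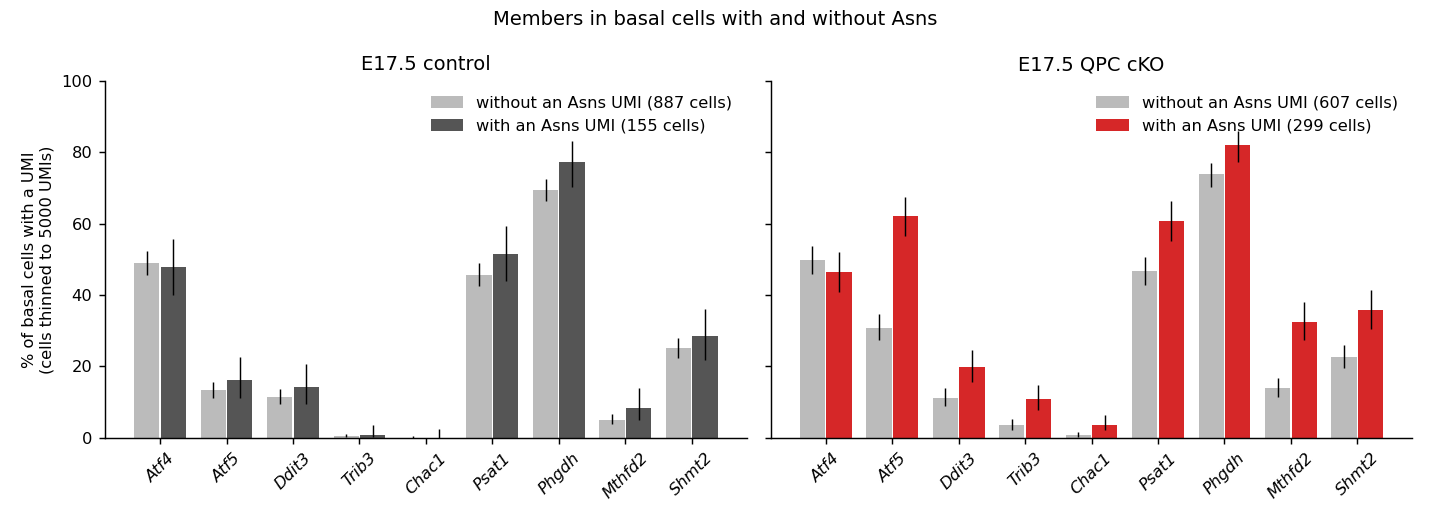
Percent of E17.5 basal cells (narrower gate, thinned to 5000 UMIs) in which each gene was detected, in cells with and without an Asns UMI, for the control and the QPC cKO library, with Wilson 95% intervals. In QPC cKO, Atf5 is at 62.2% in cells with Asns and 30.8% in cells without, and Atf4 is at 46.5% and 49.8%.

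In MOF cKO basal cells no gene of the 10 passed the test with all libraries in the fit. At E15.5, edgeR called 0 of 9 tested genes (0 at an unadjusted p under 0.05, DESeq2 0), where 0% of all genes tested were called. Asns was at 32.8 and 32.0 CPM in controls and 26.7 and 39.0 in MOF cKO, on both sides of the controls (log2 difference 0.15 ± 0.13, edgeR adjusted p = 0.606). Atf5 was at 23.8 and 27.5 CPM against 24.95 and 34.7 (0.35 ± 0.15, edgeR adjusted p = 0.508), and Mthfd2 at 18.7 and 17.9 against 13.9 and 22.4. Atf4 overlapped too, with 157 and 160 against 143 and 174 CPM. Trib3 was lower in both MOF cKO libraries, at 1.43 and 1.83 against 1.02 and 1.11 CPM (-0.48 ± 0.33, edgeR adjusted p = 0.542), and Phgdh likewise, at 264 and 209 against 140 and 203 CPM (-0.33 ± 0.16, edgeR adjusted p = 0.508). These 2 of 9 genes were the ones whose groups did not overlap, against 50.8% of all genes with at least 50 UMIs.

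The 2 MOF cKO libraries at E15.5, of which replicate 6 is the mosaic one, were unlike each other. In CPM, replicate 5 had lower values than replicate 6 for 8 of the 10 genes, among them Shmt2 (19.9 against 51.6 CPM), Psat1 (96.3 against 168) and Phgdh (140 against 203). CPM leaves out the TMM factors, 0.849 for replicate 5 and 1.06 for replicate 6, which narrow these gaps. With that scaling Atf4 and Trib3 were no longer lower in replicate 5. Their log2 differences from control were 0.15 and -0.39 with replicate 5 alone, and 0.14 and -0.57 with replicate 6 alone. The share of all genes that were lower in replicate 5 was not counted. Erythroid markers summed to 33756 CPM in its basal cells, the highest of the 10 libraries, and the 5 basal keratinocyte markers outside the gate to 1143 CPM, against 2798 CPM in replicate 6 and 3886 and 3715 CPM in the controls. Their part in the result was not tested. With replicate 5 as the only MOF cKO library, the log2 differences were -0.41 for Psat1, -0.46 for Phgdh, -0.86 for Shmt2 and 0.34 for Ddit3. With replicate 6 as the only one they were 0.09, -0.22, 0.22 and -0.48, so of these 4 only Phgdh kept its sign. Each of these fits rests on 1 MOF cKO library.

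At E16.5 the basal comparison rests on 21 and 22 MOF cKO cells, in which suprabasal markers outweighed basal ones, and their part in the values below was not tested. None of the 8 tested genes was called by edgeR (1 at an unadjusted p under 0.05, 0 by DESeq2), where 0.243% of all genes were called. Ddit3 was at 24.1 and 12.5 CPM in controls and 22.2 and 31.6 in MOF cKO (1.12 ± 0.45, edgeR adjusted p = 0.233), and Atf4 at 179 and 112 against 186 and 149 (0.74 ± 0.31, edgeR adjusted p = 0.247). Phgdh was lower in both MOF cKO libraries, at 327 and 371 against 69.3 and 176 CPM (-1.02 ± 0.45, edgeR adjusted p = 0.261). Asns was at 27.1 and 34.2 against 38.8 and 24.8 CPM, with 14 and 11 UMIs in MOF cKO. Of the 8 genes with at least 50 UMIs, Psat1, Phgdh and Shmt2 had no overlap between groups and were lower in MOF cKO, against 62.9% of all genes with that many. Trib3, below that count, lay above the controls in both MOF cKO libraries, at 11.1 and 2.26 CPM (4 and 1 UMIs) against 0.596 and 1.03. With both stages in 1 fit, 0 of 9 genes were called (1 at an unadjusted p under 0.05, 0 by DESeq2), and 0% of all genes. The MOF effect in basal cells was not shown to differ between the stages for any of 9 genes by edgeR (1 at an unadjusted p under 0.05), where 0.0152% of all genes passed. DESeq2 called 206 genes in all and 1 of the 9, Trib3, whose E16.5 values rest on 4 and 1 UMIs.

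In suprabasal cells of MOF cKO no gene was called at E15.5 (0 of 9 by edgeR, 1 at an unadjusted p under 0.05, 0 by DESeq2, and 0% of all genes). Without the mosaic replicate 6, which leaves 1 MOF cKO library, the lowest log2 differences were -1.06 for Phgdh, -1.02 for Mthfd2 and -0.82 for Shmt2. Ddit3 and Trib3 were then above 0, at 0.39 and 0.44. Phgdh was at 361 and 314 CPM in controls and 135 and 246 in MOF cKO (-0.76 ± 0.22, edgeR adjusted p = 0.631). At E16.5, with 9 and 13 MOF cKO cells, 0 of 6 genes passed by edgeR (2 at an unadjusted p under 0.05), where 4.03% of all genes did. Phgdh was nearest to the threshold, at 555 and 504 CPM in controls against 15.6 and 103 in MOF cKO (-2.65 ± 0.63, edgeR adjusted p = 0.0622). DESeq2 called Phgdh lower, along with 227 genes in all. Trib3, not tested for its low counts, was at 15.6 and 13.7 CPM (3 and 4 UMIs) in MOF cKO against 2.01 and 7.26 (1 and 6 UMIs) in controls. These libraries had a median of 0.0811% and 0.0693% mitochondrial UMIs in suprabasal cells, against 3.44% and 2.02% in the controls, and the part of this in the result was not tested. Over both stages edgeR called 0 of 9 genes (1 at an unadjusted p under 0.05, 1 by DESeq2) and 0.128% of all genes, where DESeq2 called 177 genes in all.

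With all libraries in the fit, the edgeR calls among the 10 genes in MOF cKO fell in E16.5 fibroblasts, which K14Cre does not target. There 3 of 8 genes were lower, where 4.64% of all genes passed in either direction. Phgdh was at 128 and 133 CPM in controls and 45.7 and 43.5 in MOF cKO, and it fell by 1.43 on the log2 scale (SE 0.15, edgeR adjusted p = 0.0275). Mthfd2 was at 51.7 and 48.2 against 24.4 and 22.9 CPM and fell by 0.95 (SE 0.13, edgeR adjusted p = 0.0335), and Psat1 at 50.6 and 53.3 against 25.5 and 21.0 CPM and fell by 1.05 (SE 0.18, edgeR adjusted p = 0.0435). The replicates lay close together and the groups far apart for all 3. Shmt2 was at 59.4 and 62.4 against 34.3 and 34.9 CPM (edgeR adjusted p = 0.0568), and Ddit3 at 35.6 and 30.2 against 42.8 and 48.1 CPM (edgeR adjusted p = 0.0538). In all, 5 of 8 genes lay below the controls with no overlap and 1 above, against 54.0% of all genes with at least 50 UMIs. In these fibroblasts Kat8 was at 9.60 and 8.23 CPM in controls and 2.81 and 5.39 in MOF cKO (edgeR adjusted p = 0.136), and erythroid markers summed to 7319 and 22279 against 13529 and 5409.5 CPM. The part of either in the result was not tested. The calls did not outlast the loss of a library: without E16.5 control 1 only Phgdh passed, and without control 2, MOF cKO 1 or MOF cKO 2 no gene did. Psat1 also missed the threshold under the narrower gate (edgeR adjusted p = 0.0512).

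At E15.5 the fibroblast values were close, and edgeR called 0 of 9 genes (1 at an unadjusted p under 0.05, 0 by DESeq2) and 0% of all genes. Phgdh was at 84.9 and 62.2 CPM in controls and 61.3 and 52.1 in MOF cKO, and Mthfd2 at 38.7 and 44.5 against 35.2 and 40.6. Of 9 genes, 4 lay below and 2 above the controls with no overlap, against 47.1% of all genes with at least 50 UMIs. Over both stages edgeR called 0 of 9 in fibroblasts (5 at an unadjusted p under 0.05) and 0% of all genes. DESeq2 called 3 lower, Phgdh, Mthfd2 and Psat1, along with 1543 of the 14435 genes tested in all. The difference of the MOF effect between basal cells and fibroblasts was above 0 for all 9 genes, with a median of 0.34 on the log2 scale against -0.04 for all genes, but edgeR called 0 of them (1 at an unadjusted p under 0.05, 0 by DESeq2) and 0% of all genes. For Shmt2 this difference was 0.06 ± 0.26, and -0.18 without the mosaic replicate 6.

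Set side by side in basal cells, Asns had a TMM-scaled log2 difference of 0.15 ± 0.13 in MOF cKO at E15.5, 0.52 ± 0.44 at E16.5 and a log2 ratio of CPM of 1.65 in QPC cKO. Atf5 had 0.35 ± 0.15, 0.63 ± 0.41 and 1.17, and Mthfd2 had 0.11 ± 0.18, 0.05 ± 0.43 and 1.24. The median over the genes was -0.02 (9 genes) in MOF cKO at E15.5, 0.29 (8 genes) in MOF cKO at E16.5 and 1.02 (10 genes) in QPC cKO, where the medians of all genes were -0.01, -0.11 and -0.01. The E16.5 values depend on the scaling. With library size alone, as in CPM, Asns was at 0.029, Atf5 at 0.062 and Mthfd2 at -0.47 there, and the medians were -0.20 over the genes (-0.15 over all genes) at E15.5 and -0.22 (-0.64 over all genes) at E16.5, while TMM scaling gave 1.01 in QPC cKO. Stage, chemistry version and deleted gene change together between these comparisons, so whether QPC and MOF loss differ could not be tested.

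**Figure D5:**
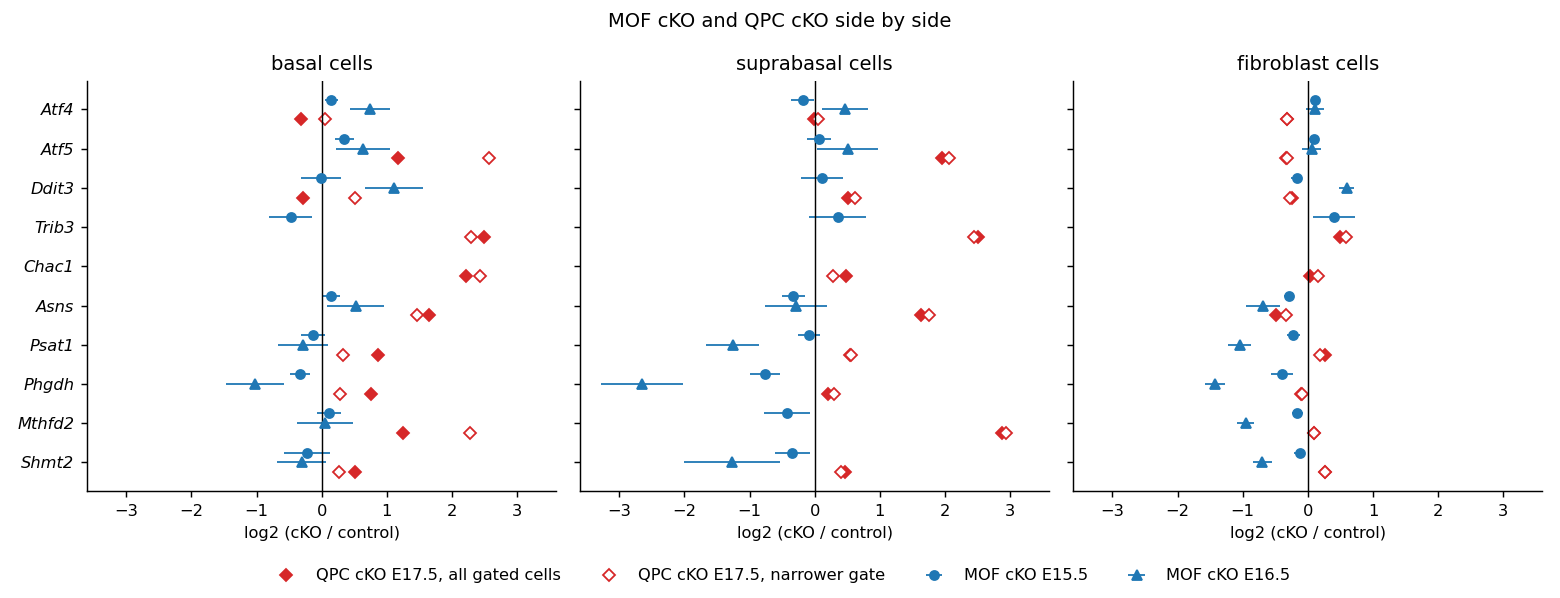
Log2 difference of each gene from control in basal cells, suprabasal cells and fibroblasts. MOF cKO at E15.5 and E16.5 is from edgeR for the genes tested (bars are SE). QPC cKO at E17.5 is drawn as diamonds (log2 ratio with a pseudocount of 1 CPM, no replicate), filled for all gated cells and open for the narrower gate. In basal cells Asns is at 0.15, 0.52 and, in all gated cells of QPC cKO, 1.65.

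The wider pathway was read in 9 lists of 82 other genes, also chosen with earlier results of these data known. In QPC cKO basal cells 4 of the 82 were 2-fold higher and 7 lower, and under the narrower gate 7 higher and 2 lower. Of all genes, 1.43% were 2-fold higher and 10.9% lower in all gated cells, and 1.18% and 4.41% under the narrower gate, so the share of the lists that was lower was not above that of all genes. Those higher under both were the cationic amino acid transporter Slc7a3 (18.7-fold, and 18.0-fold under the narrower gate), the secreted glycoprotein Stc2 (6.18-fold and 6.104-fold) and Psph, the last enzyme of serine synthesis (3.23-fold and 2.31-fold). Cth, of cysteine synthesis (2.66-fold), was 2-fold higher in all gated cells alone, and Aldh1l2 (16.1-fold), Nupr1 (4.36-fold), Fgf21 (17.48-fold) and Eif4ebp1 (2.04-fold) under the narrower gate alone. The largest of these ratios rest on low control values. Slc7a3 was at 0.363 CPM in all gated control cells, with a counting interval of 12.1 to 29.9 for its ratio. Under the narrower gate Fgf21 was at 0.172 CPM in the control (interval 6.52 to 66.0) and Aldh1l2 at 1.03 CPM (10.7 to 25.5). With the pseudocount of 1 CPM used for the calls, these log2 ratios were 2.51, 1.77 and 3.12. The stress cytokine Gdf15 was lower under both gates, with a ratio of 0.177 (0.114 to 0.264) in all gated cells. The repressor Jdp2 was also lower under both (0.404 in all gated cells). In all gated cells alone, the eIF2 kinase gene Eif2ak3 (0.386), Pycr1 (0.422), Xbp1 (0.429), Cebpb (0.459) and Ppp1r15a (0.484) were 2-fold lower. In suprabasal cells 7 of 72 were higher, where 0.726% of all genes were, and 0 lower (9 of 70 and 0 under the narrower gate, where 0.845% of all genes were higher), led by the cystine transporter Slc7a11 (16.49-fold), Aldh1l2 (7.51-fold), Cth (5.46-fold), Nupr1 (4.91-fold) and Stc2 (4.77-fold). Suprabasal Slc7a11 was at 2.21 CPM in the control, with a counting interval of 8.72 to 34.4 for its ratio. In fibroblasts 0 of 81 were higher and 2 lower, Slc7a11 (0.139) and Cebpb (0.395), where 1.49% of all genes were lower.

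The aminoacyl-tRNA synthetases and the tRNA exporter Xpot moved by less than 2-fold, with 12 of 13 above the control in basal cells (median log2 ratio 0.37), 13 of 13 in suprabasal cells (0.50) and 6 of 13 in fibroblasts (-0.02). Of all genes 49.3% were above the control in basal, 44.3% in suprabasal and 66.3% in fibroblast cells, with medians of -0.0085, -0.042 and 0.0997. Under the narrower gate the epidermal medians were 0.39 and 0.55. Genes of the endoplasmic reticulum unfolded protein response had a median of -0.38 in basal cells and 0.02 under the narrower gate, and the ER chaperone regulator Xbp1 was at 0.429 of the control in all gated cells and at 0.801 under the narrower gate. The mitochondrial chaperones and proteases had medians of 0.31 and 0.0925 in basal cells for the same pair of gates.

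In MOF cKO the lists held few calls. None was made at E15.5 or in E16.5 basal cells. Eif4ebp1, a brake on translation, was higher in E16.5 suprabasal cells (2.17 ± 0.42, edgeR adjusted p = 0.0390), as 1 of 49 list genes tested, where 4.03% of all genes were called. In E16.5 fibroblasts Sqstm1 was higher (0.78, edgeR adjusted p = 0.0355) and Mthfd1, Sdf2l1 and Eif2s1 lower (-1.02, -0.80 and -0.79). The fibroblast calls are 4 of 80 list genes tested, close to the share of all genes called there (4.64%). Atf3, an immediate early partner of the response that was chosen after its values were seen, was at 1741 and 1636 CPM in E15.5 control basal cells and 308 and 603 in MOF cKO, and did not pass (-1.79 ± 0.25, edgeR adjusted p = 0.508). At E16.5 Atf3 was at 157 and 88.8 CPM in control basal cells and 69.3 and 124 in MOF cKO, at 72.4 and 38.7 against 41.5 and 61.7 CPM in suprabasal cells and at 91.1 and 48.1 against 136 and 168 CPM in fibroblasts. The keratinocyte groups overlapped, and the sign of the difference there turned with the scaling, from 0.20 ± 0.37 and 0.43 ± 0.46 under TMM to -0.34 and -0.11 with library size alone. In fibroblasts the groups did not overlap (1.28 ± 0.26, edgeR adjusted p = 0.0570). In controls, 26 of the 82 were higher and 30 lower in basal cells than in fibroblasts, led by Cbs, Cth and Slc7a5 on one side and Fgf21, Pycr1 and Jdp2 on the other, and 28 were higher and 5 lower in suprabasal than in basal cells, led by Slc7a11 and Stc2 among the first and Cth and Slc1a5 among the second. These are 56 of 82 and 33 of 79 genes tested, to be read against 55.5% and 29.5% of all genes.

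Across the 10 basal pools, the mean of the members on the log2(CPM + 10) scale, centred per stage, was tracked most closely by Trp63 (Pearson r = 0.924), Sipa1l3 (0.921), Efna1 (0.921), mt-Nd2 (0.917) and Usp10 (0.915), out of 5506 genes compared. The pools share stages, depth and cell makeup, and each stage's mean was removed, so these values only describe likeness.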

How the data were processed

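Total back skin of mouse embryos was profiled by 10x 3' single-cell RNA sequencing in 10 libraries. The authors deposited raw UMI counts per gene and cell barcode, made with Cell Ranger (versions 1.3.1 and 6.1.2 are named in the submitters' processing notes) on mm10. Cells were kept and gated on marker UMIs as given above, doublets were not called, and counts were summed per library and class, so that libraries were the replicates. Pools were tested with edgeR 4.0.16 in R 4.3.3 (filterByExpr, TMM, quasi-likelihood test, two-sided, Benjamini-Hochberg over all genes tested, threshold 0.05), with DESeq2 1.42.0 as an alternative. Tested on simulated data, the fits missed most changed genes in the MOF cKO keratinocyte comparisons, so a count of 0 there does not show that a gene did not change. The E16.5 fibroblast fit also missed most changed genes, and false calls stood beside its true ones. At E17.5, with 1 library per group, ratios of CPM are given with exact Poisson intervals, and a call means at least 2-fold with at least 50 UMIs and a pseudocount of 1 CPM. Poisson and Wilson intervals (95%) cover counting error only. Alternatives were the scaling, the low-count filter, 5% mitochondrial UMIs, the narrower gate, cell weighting, the pseudocount and left-out libraries, and, chosen after seeing the data, left-out shared barcodes. All 10 members were named, with up to 5 genes each way from the pathway lists per comparison. The deleted genes and the 5 genes most like the members were named too. Atf3, and Eif4ebp1, Cebpb and Ppp1r15a in keratinocytes at E17.5, were added after their values were seen. Members and lists were chosen with earlier results of these data known. Replicate numbers at E16.5 did not show which libraries pair.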

Additional observations from a re-analysis of the deposited data

Results flagged for a closer look

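Among the 5 control libraries, a single library stood far from the rest in 4 of 30 groups of values examined (chance marks about 1 in 20). E16.5 control 1 was highest for Chac1 in fibroblasts (0.556 CPM, next 0.167) and in suprabasal cells (2.01 CPM, next 0.401), both from few UMIs, and for Shmt2 in suprabasal cells (171 CPM, next 76.3). The E17.5 control was highest for Ddit3 in fibroblasts (73.7 CPM, next 38.002).

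In fibroblasts Ddit3 was below the controls in both MOF cKO libraries at E15.5 and above them in both at E16.5, where it reached 48.1 CPM. At E15.5 Trib3 was above the controls in both MOF cKO libraries in suprabasal cells and below them in basal cells. The suprabasal groups all but touched, at 2.31 and 3.39 CPM in controls against 3.40 and 3.70 in MOF cKO. Neither difference was tested. Ratios of QPC cKO to control at E17.5 lay on opposite sides of 1 in epidermis and fibroblasts for 4 genes: Atf5 (2.26 in basal and 3.92 in suprabasal cells, 0.793 in fibroblasts), Asns (3.22, 3.14 and 0.700), Phgdh (1.70, 1.15 and 0.928) and, in suprabasal cells, Ddit3 (1.45 against 0.842). Each rests on 1 library per group, and the difference was not tested.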

How the results depend on the processing

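Fitted values were counted for MOF cKO in basal cells and fibroblasts at each stage and for the 2 control comparisons, and not for the other fits. Over the alternatives, 494 of 560 such values kept their direction and side of the threshold, 34 lost a call, 11 gained one and 21 turned sign. Of the ratios at E17.5, 155 of 210 stayed within their counting interval while 55 left it. With 1 library left out in turn, a MOF cKO fit of a single stage rests on a lone library in 1 group. Its calls among the 10 genes then moved in E15.5 basal and suprabasal cells and in E16.5 suprabasal cells and fibroblasts. Left-out fits called 0 to 1 of the 10 genes in suprabasal cells of both stages (0 to 423 of all genes). In suprabasal against basal controls they called 3 to 6 (2307 to 3831 of all genes). A lone library in an arm is assumed to vary like the other group. DESeq2 called 1 gene in E16.5 suprabasal cells and 1 over both stages (Phgdh), 3 in fibroblasts over both stages and 1 (Trib3) for the stage difference. Without a low-count filter it was 1 in E15.5 suprabasal, 1 in E16.5 suprabasal, 1 in suprabasal cells of both stages and 5 in E16.5 fibroblasts. Over all settings that kept every library, calls among all genes ran from 0 to 525, 88 to 636, 5 to 558 and 513 to 1752 in these comparisons in turn. E16.5 suprabasal cells gave 2 with library size alone, 1 under 5% mitochondrial UMIs and 3 under the narrower gate, to be read against the 88 to 636 of all genes. Suprabasal against basal controls gave 3 under 5% mitochondrial UMIs, where 3273 to 5040 of all genes were called over the same settings. At E17.5, 4 to 7 genes were called in basal and 3 to 4 in suprabasal cells. Thinned to 3000 UMIs, Asns was detected in 7.78% of control and 21.8% of QPC cKO basal cells. For each of these the cause was not tested.

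Among the fits so counted, no value that turned sign had passed the test in the full data. In E15.5 basal cells Ddit3 was at 0.0019 with DESeq2 and under the narrower gate, 0.081 under 5% mitochondrial UMIs and -0.48 to 0.34 with a library left out, Mthfd2 at -0.0115 with library size alone and -0.10 to 0.29, Psat1 at -0.41 to 0.093 and Shmt2 at -0.86 to 0.22. In E16.5 basal cells Mthfd2 was at -0.47 with library size alone, -0.033 with no filter, -0.060 under 5% mitochondrial UMIs and -0.42 to 0.33 with a library left out, Psat1 at -0.65 to 0.16, and Shmt2 at 0.085 under the narrower gate. In E16.5 fibroblasts Atf4 and Atf5 were at -0.0125 and -0.0735 with library size alone, and Atf5 at -0.059 to 0.16 with a library left out. Mthfd2 in suprabasal against basal controls was at 0.19 under the narrower gate and -0.28 to 0.15 with a library left out.

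Numbers of all genes called moved widely. DESeq2 called 119, 49 and 494 genes in basal, suprabasal and fibroblast cells at E15.5, where edgeR called 0, and 299, 227 and 950 at E16.5 (edgeR 23, 172 and 583). Over both stages it called 317, 177 and 1543 (edgeR 0, 12 and 0), for the stage difference 206 (edgeR 2) and for basal cells against fibroblasts 392 (edgeR 0). Leaving out a library gave 0 to 7518 genes in E15.5 basal cells, 0 to 434 in E16.5 basal cells and 0 to 369 in E16.5 fibroblasts. Library size alone moved the median of all genes in E16.5 basal cells to -0.64 (TMM -0.11), and split the calls 126 higher to 179 lower in E16.5 suprabasal cells (TMM 143 to 29), 346 to 491 in fibroblasts (TMM 305 to 278) and 1419 to 2446 in suprabasal against basal controls (TMM 1900 to 1858). The replicate block at E16.5 called 52, 88 and 576 genes in all and 0, 0 and 2 of the 10. Deviations of libraries with the same number correlated at -0.08, -0.04 and -0.02, so the numbers name libraries only. The E16.5 MOF cKO basal pools held 21 and 22 cells, with 4 and 1 UMIs of Trib3 and 0 of Chac1.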
